A study of Mus musculus with 9 samples.

Results

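The hippocampal miRNAs of mice given PM2.5 at 5 mg/kg bw were compared with those of mice given saline, for every mouse miRNA that the scanner software called detected on all 3 arrays of either group. These were 415 of the 1247 mouse miRNAs on the array, of which 397 were detected on all 6 arrays, 5 on all control arrays but not all 5 mg/kg bw arrays, and 13 on all 5 mg/kg bw arrays but not all control arrays. PM2.5 is the fraction of airborne particles fine enough to reach the deep lung, and here it was washed from filters of city air. Male C57BL/6 mice of about 8 weeks received saline or PM2.5 in saline by oropharyngeal aspiration (a droplet placed at the back of the throat and inhaled) every other day for 4 weeks, and the hippocampus was taken 18 h after the last exposure. Each group had 3 arrays, each from 1 mouse, and 3 further arrays of mice given 1 mg/kg bw entered the scaling, the mean levels, the shared estimate of the spread and the row block fit, but neither mean compared here.

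miRNAs are short RNAs cut from hairpin precursors, of which either strand, named 5p or 3p after its side of the hairpin, can be loaded into the silencing complex. The loaded miRNA pairs with messenger RNAs mainly through its seed, the bases near its 5′ end, so miRNAs with the same seed form a family with overlapping targets. Many miRNA genes lie in clusters that are transcribed together, and the hippocampus is known for high levels of the neuronal miR-124, miR-128 and miR-9 and of the let-7 family.

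Mature sequences of the members that the results turn on are given below, 5′ to 3′, with the seed (bases 2 to 8) in capitals, from RefSeq for GRCm38.p6, where 341 of the 415 members had an entry of the same name. The first set holds rises from the imprinted Dlk1-Dio3 region of chromosome 12 and from other loci, shown because 376a, 381, 127 and 136 lie in that region while no pair of them shares a seed.
miR-376a-3p: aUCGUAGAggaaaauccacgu
miR-381-3p: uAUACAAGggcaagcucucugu
miR-127-5p: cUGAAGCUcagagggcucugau
miR-136-5p: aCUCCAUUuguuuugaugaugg
miR-708-5p: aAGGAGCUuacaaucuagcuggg
miR-153-5p: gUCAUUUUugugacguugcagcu
miR-451a: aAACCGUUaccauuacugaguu

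The second set holds falls, shown for the UG or AC repeats of miR-574-5p and miR-466i-3p and for the 3p strands of the let-7a-1 and let-7d hairpins, whose seeds differ from that of the let-7 family.
miR-574-5p: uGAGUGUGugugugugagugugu
miR-466i-3p: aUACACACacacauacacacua
let-7a-1-3p: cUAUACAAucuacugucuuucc
let-7d-3p: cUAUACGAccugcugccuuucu
miR-706: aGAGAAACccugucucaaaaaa
miR-5119: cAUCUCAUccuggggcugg
miR-681: cAGCCUCGcuggcaggcagcu

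The third set shows shared seeds in the families described below, first let-7, then miR-15/16, then miR-200b and miR-429.
let-7b-5p: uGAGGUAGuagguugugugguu
let-7c-5p: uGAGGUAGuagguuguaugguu
let-7f-5p: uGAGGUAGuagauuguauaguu
miR-15a-5p: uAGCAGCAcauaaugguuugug
miR-15b-5p: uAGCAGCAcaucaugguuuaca
miR-195a-5p: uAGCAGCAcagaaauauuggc
miR-322-5p: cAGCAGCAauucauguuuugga
miR-200b-3p: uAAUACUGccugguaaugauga
miR-429-3p: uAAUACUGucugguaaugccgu

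The arrays of the compared groups were placed unevenly on the slides. The headers put the 3 control arrays in row 1 of slide 1, replicates 1 and 2 of 5 mg/kg bw in row 2 of slide 1, and replicate 3 of 5 mg/kg bw in row 1 of slide 2, where it was the only array of the series. Between the compared groups, dose and row therefore cannot be told apart on slide 1, and dose and slide cannot be told apart for replicate 3. Control replicate 1 on slide 1 and replicate 3 of 5 mg/kg bw on slide 2 had the same position, row 1 and column 1. The 1 mg/kg bw arrays lie in both rows of slide 1, so a row effect was also fitted. The arrays were otherwise alike: between 410 and 436 miRNAs were detected, the 75th percentile used for scaling lay between 492 and 614 intensity units, and 0 spots were saturated. Replicate 3 often lay near control replicate 1, apart from the other 5 mg/kg bw arrays, so many results are given with and without it. All levels below are log2 of the signal divided by the array's 75th percentile, and a change is the mean of 5 mg/kg bw minus that of control on this scale, with its standard error (SE) from limma.

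PM2.5 at 5 mg/kg bw was followed by small shifts in few miRNAs. At an unadjusted p under 0.05, 41 members differed (9.88% of the 415 tested), 17 higher (4.10%) and 24 lower (5.78%), and 0 passed after Benjamini-Hochberg adjustment, the lowest adjusted p from limma being 0.252. Of the 18 members not detected on all 6 arrays, which entered through 1 group, 1 passed (miR-681). The changes of the 41 ran from -0.80 for miR-5110 to 0.44 for miR-376a-3p, and the median SE over all members was 0.11. The arrays did not overlap between the groups for 68 members (16.4%), 28 higher (6.75%) and 40 lower (9.64%), and 36 members met both criteria. Of the 41, 13 also passed with normexp background correction and 10 in the fit with the array row as a block. Arrays of both PM2.5 doses lie in both rows, so replicate 3 against replicates 1 and 2 of 5 mg/kg bw helps set the row effect. Changes in the row block fit are therefore drawn toward replicate 3. The split of called members into higher and lower, 17 to 24 here, depended on the scaling and the background. Each alternative called its own set of members. The split was 33 to 1 without scaling, where the median change of all members was 0.11. It was 9 to 8 with normexp background correction, and 92 to 10 from the total signal of the scanner software.

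Without replicate 3, 119 members passed an unadjusted p under 0.05 (28.7%), 61 higher (14.7%) and 58 lower (14.0%), and again 0 passed adjustment, with a lowest adjusted p from limma of 0.0943. The 2 remaining arrays did not overlap with the controls for 212 members (51.1%), 105 higher (25.3%) and 107 lower (25.8%), a count of 2 arrays against 3 that is not comparable with the 68. Of the 41 members called with all arrays, 33 were also called without replicate 3, all in the same direction, and 86 were called only without it. In 66 of these 86, replicate 3 lay on the other side of the control mean from replicates 1 and 2, as it did for 221 of all 415 members. The median size of a change was 0.11 with replicate 3 and 0.16 without it, and members that moved by over 0.5 numbered 6 and 28.

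**Figure D1:**
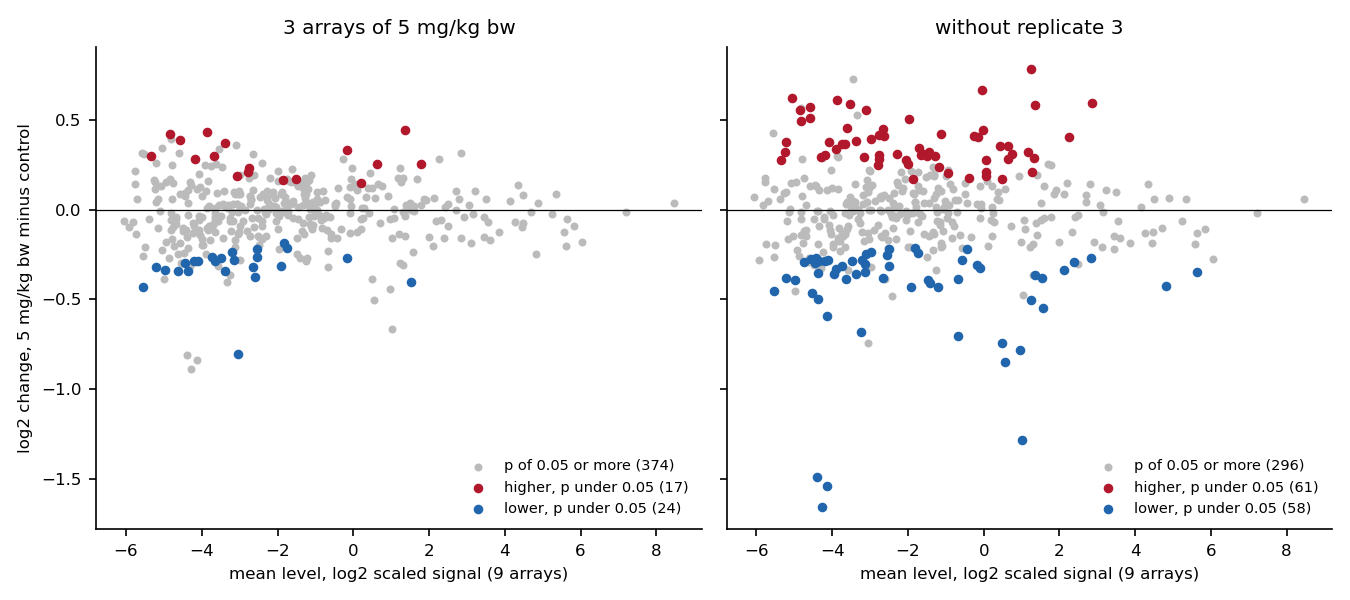
Change against level for the 415 members, with all 3 arrays of 5 mg/kg bw (left) and without replicate 3 (right). Each point is a miRNA, the horizontal axis is its mean log2 scaled signal over 9 arrays and the vertical axis its log2 change. Coloured points passed an unadjusted p under 0.05 in limma, 17 higher and 24 lower on the left, 61 and 58 on the right.

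The members of highest signal, which is not a measure of RNA amount between probes, did not pass the test. miR-6366 had the highest signal and changed by 0.04 with an SE of 0.09. miR-128-3p, enriched in neurons, lay at 6.39, 6.07 and 6.15 in control and 5.95, 5.91 and 6.21 at 5 mg/kg bw. Its change was -0.18 with an SE of 0.13, and replicate 3 lay inside the control range. miR-124-3p, the most studied miRNA of neurons, changed by -0.05 (SE 0.09), and miR-29a-3p, which targets collagen mRNAs and is listed as acting on BACE1, by -0.09 (SE 0.07). miR-3963 changed by -0.01 with an SE of 0.10.

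Rises came partly from the Dlk1-Dio3 region, an imprinted domain whose miRNAs are expressed from the maternal chromosome and are known in neurons. miR-376a-3p (chr12:109723824-109723844, plus strand, GRCm38.p6) lay at 0.94, 1.20 and 1.22 in control and at 1.81, 1.60 and 1.28 at 5 mg/kg bw. The groups did not overlap, but replicate 3 was just above the highest control. The change was 0.44 (SE 0.15, limma adjusted p = 0.437), and 0.58 without replicate 3 (adjusted p = 0.161). In the row block fit it was 0.23 and no longer passed the unadjusted threshold. miR-381-3p (chr12:109726870-109726891) lay at -0.40, -0.29 and -0.29 in control and at 0.18, -0.02 and -0.14 at 5 mg/kg bw. All 5 mg/kg bw arrays were higher, by 0.33 on average (SE 0.09, limma adjusted p = 0.36), and it was among the 5 members of lowest p. It was also past the unadjusted threshold with normexp, where it changed by 0.26, and in the fit that blocks on the array row, where it changed by 0.28.

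Several rises were of dim miRNAs and their values depended on the background correction. Normexp was run with an offset of 50 intensity units per spot, which pulls changes of dim miRNAs toward a common value. It therefore cannot decide whether these rises hold. miR-127-5p (chr12:109592854-109592875, inside the span of Rtl1) lay at -4.14, -4.08 and -4.07 in control and at -3.35, -3.60 and -4.01 at 5 mg/kg bw. It was higher by 0.44 (SE 0.15), while with normexp its change was -0.01. miR-708-5p, encoded within Tenm4, lay at -4.83, -4.64 and -4.69 in control and -4.20, -4.21 and -4.58 at 5 mg/kg bw. Its change of 0.39 (SE 0.11) was 0.51 without replicate 3 (limma adjusted p = 0.0943) and -0.04 with normexp. Its probes ran from -0.87 to 0.48. The probe at -0.87 had a mean signal of only 1.65 intensity units. Changes also went from 0.30 to -0.03 for miR-325-3p, from 0.30 to -0.04 for miR-153-5p and from 0.28 to -0.04 for miR-872-3p. miR-3107-5p rose by 0.37 (SE 0.09), and with normexp its change was 0.06 and no longer passed. Normexp moved the median of all members to -0.05 and that of the dimmest of the 4 abundance classes to -0.08. The 6 called members whose sign turned with it did not lie below that median of all members.

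Among the brighter rises was miR-451a, which is made in maturing red cells and can mark blood left in a tissue. It lay at 1.52, 1.87 and 1.73 in control and at 2.01, 1.90 and 1.98 at 5 mg/kg bw. All 3 exposed arrays were above the controls, replicate 3 among them, and the change was 0.26 (SE 0.10, limma adjusted p = 0.452). Without replicate 3 it was 0.25 and no longer passed. The other red cell miRNA measured, miR-144-3p, was detected on 2 of 3 control arrays and entered through the exposed group. It changed by 0.40 (SE 0.27) and its groups overlapped. miR-142-3p, specific to blood-derived cells and microglia, rose by 0.21 (SE 0.08). The microglia and leukocyte list had 5 members measured, of which 1 passed the test, with a median change of 0.11 and values for the other members of 0.01 for miR-146a-5p, 0.04 for miR-150-5p, 0.11 for miR-223-3p and 0.13 for miR-155-5p, the last detected on 1 of 3 control arrays. The median was -0.01 with normexp. The median change of the 4 vascular wall members was 0.08 and 0 passed. In bulk tissue, a change in the number of cells of a type and a change in the RNA of each cell cannot be told apart, and the part of blood content in these values was not tested. miR-677-3p, encoded within Atp5b, and miR-193a-3p completed the 12 largest rises, with changes of 0.23 (SE 0.08) and 0.19 (SE 0.08), the latter 0.17 and not past the threshold without replicate 3.

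Falls were led by miR-709, which had the lowest p of all members. It lay at 1.79, 1.83 and 1.76 in control and at 1.32, 1.51 and 1.34 at 5 mg/kg bw. The groups were clearly separated on every array, by -0.40 (SE 0.08, limma adjusted p = 0.252). The change was -0.38 without replicate 3, -0.36 with normexp and -0.40 in the row block fit, and it passed the unadjusted threshold in each. The members called with all arrays that also passed with normexp, with the row block and without replicate 3 were 3, namely miR-709, miR-381-3p and miR-3082-5p. miR-681, encoded within Cdkl1, fell by 0.43 (SE 0.15), but was detected on 1 of 3 exposed arrays and entered only through the control group, where it was higher. miR-5119, within Cdk12, fell by 0.38 (SE 0.16), with a row block change of -0.19 and no longer past the threshold without replicate 3 (-0.39). miR-3082-5p, miR-669c-3p, miR-3058-5p, miR-3470a and miR-1983 fell by between 0.34 and 0.30. miR-706, within Wnk1, lay at -3.93, -3.82 and -3.95 in control and at -4.13, -4.23 and -4.19 at 5 mg/kg bw, which made a change of -0.28 (SE 0.08), with probes that ran from -0.33 to 0.11. The probe at 0.11 had a mean signal of only 0.71 intensity units. Dim falls also depended on the background correction. With normexp the change was -0.10 for miR-681, -0.12 for miR-669c-3p, -0.11 for miR-3058-5p, -0.12 for miR-1983 and -0.11 for miR-706. None of these passed, and the median of the dimmest abundance class was then -0.08. As for the dim rises, normexp cannot decide whether these falls hold. miR-5110 had the lowest change of the called members, -0.80 (SE 0.35). Its control arrays spread from -3.49 to -2.24 and overlapped with the exposed arrays.

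**Figure D2:**
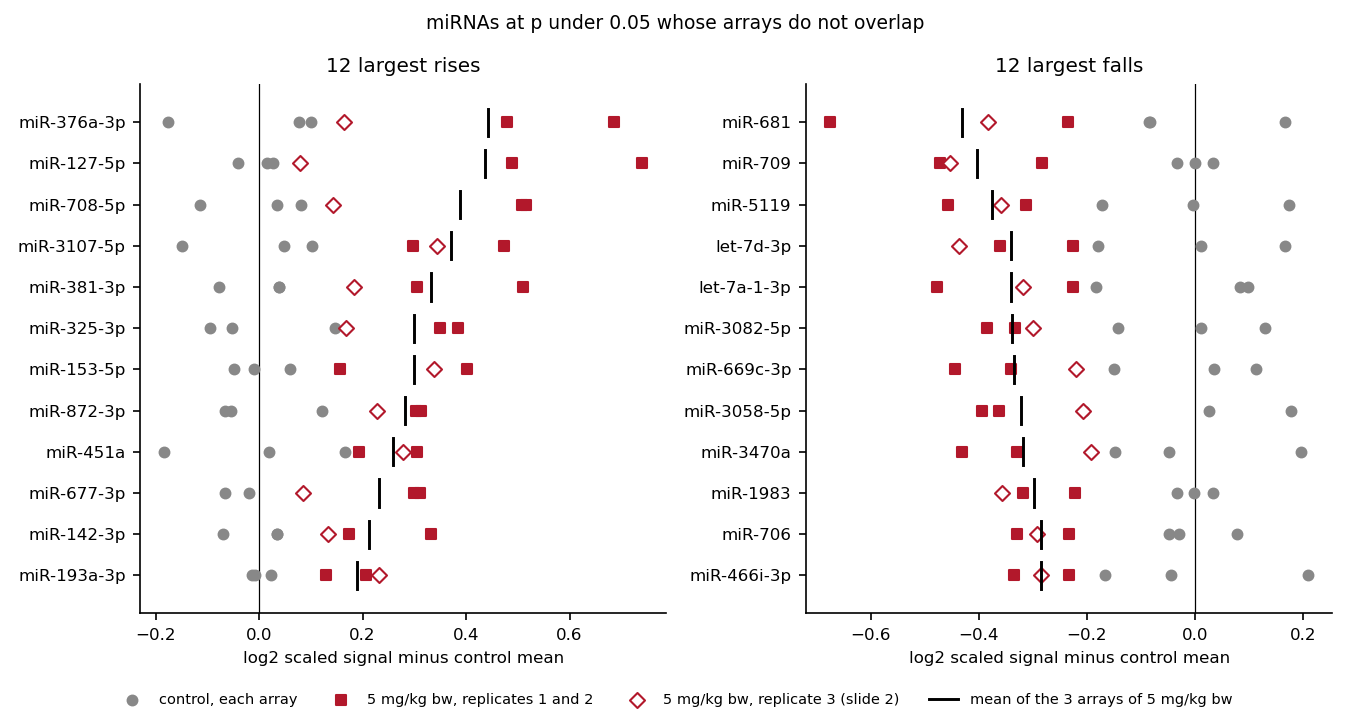
The 12 largest rises (left) and 12 largest falls (right) among members at an unadjusted p under 0.05 whose arrays did not overlap. Each point is an array, placed by its log2 scaled signal minus the control mean, with controls in grey, replicates 1 and 2 of 5 mg/kg bw as squares, replicate 3 as an open diamond and the mean of the 3 exposed arrays as a bar. Of the exposed arrays, replicate 3 lies closest to the controls for miR-376a-3p, miR-127-5p and miR-708-5p, among others, and it lies with the other exposed arrays for miR-709.

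miR-574-5p (chr5:64970328-64970350, plus strand, within the spans of Fam114a1 and Tlr6), the miRNA on which the study centred its follow-up, was lower at 5 mg/kg bw. It lay at -1.60, -1.72 and -1.51 in control and at -1.84, -1.86 and -1.77 at 5 mg/kg bw. No exposed array reached a control, and the change was -0.21 (SE 0.09, limma adjusted p = 0.452). It was -0.24 without replicate 3, -0.15 with normexp and -0.13 with the row as a block, where it no longer passed. The study chose this miRNA on these samples, so its direction here is not independent evidence. It belongs to the UG-repeat list, which was formed by miRNA name. The 5 members with a sequence have repeated UG or AC bases, and the others, miR-467a-5p among them, were not checked for repeats. Repeats make sequences closely alike, so that signal of single members is uncertain. Of 16 members, 7 passed as lower and 0 as higher (5.78% and 4.10% over all members), and 7 lay below the controls without overlap (9.64% over all members). The median change was -0.21 against -0.01 for all members. The list held both directions, with 6 of 16 changes above 0, up to 0.34 for miR-467a-5p, detected on 2 control arrays. Without replicate 3 the same number of changes was above 0, and 5 members passed as higher and 9 as lower (14.7% and 14.0% over all members). miR-466i-3p, encoded within Cdk13, fell by 0.28 (SE 0.10), and miR-669c-3p, as given above, fell by 0.33. With normexp the change of miR-466i-3p was -0.12 and no longer passed.

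By arm in the name, 8 of 181 3p strands were higher and 7 lower, and 8 of 167 5p strands were higher and 5 lower, counts that were close. The 67 members with no arm in the name had 1 higher and 12 lower, against 5.78% lower among all members, and a median change of -0.10. Without replicate 3 these were 0 higher and 15 lower (14.7% and 14.0% over all members), with a median of -0.16. The median became 0.02 with the row as a block and 0.01 without scaling, against 0.02 and 0.11 for all members. The 90 members numbered 1000 and over, which were annotated late, had 1 higher and 10 lower (median -0.09), and the 325 with lower numbers had 16 higher and 14 lower (median 0.02). Without replicate 3 the members numbered 1000 and over had 2 higher and 13 lower, and those with lower numbers 59 and 45. The late-numbered members and those with no arm in the name overlap and so are not separate observations.

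By abundance, the members fell into 4 classes of about equal size, set against 4.10% higher and 5.78% lower over all members. The brightest 104 members, which held 95.6% of the summed signal, had 4 higher and 1 lower, the next 103 had 3 and 4, the following 104 had 5 and 11, and the dimmest 104 had 5 and 8. Median changes in the same order were 0.00, 0.03, -0.01 and -0.07, the last being 0.00 with the row block. Without replicate 3 the counts of higher and lower were 17 and 13, 16 and 12, 15 and 14, and 13 and 19. Over all members 14.7% were then higher and 14.0% lower. By G and C content, the 61 members under 40% had 3 higher and 6 lower, while their median change was 0.04. Without replicate 3 they had 16 higher and 9 lower with a median of 0.10, and the median was 0.00 with the row block. The 68 members over 60% had 0 higher and 3 lower with a median of 0.01, and 7 higher and 2 lower without replicate 3.

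**Figure D3:**
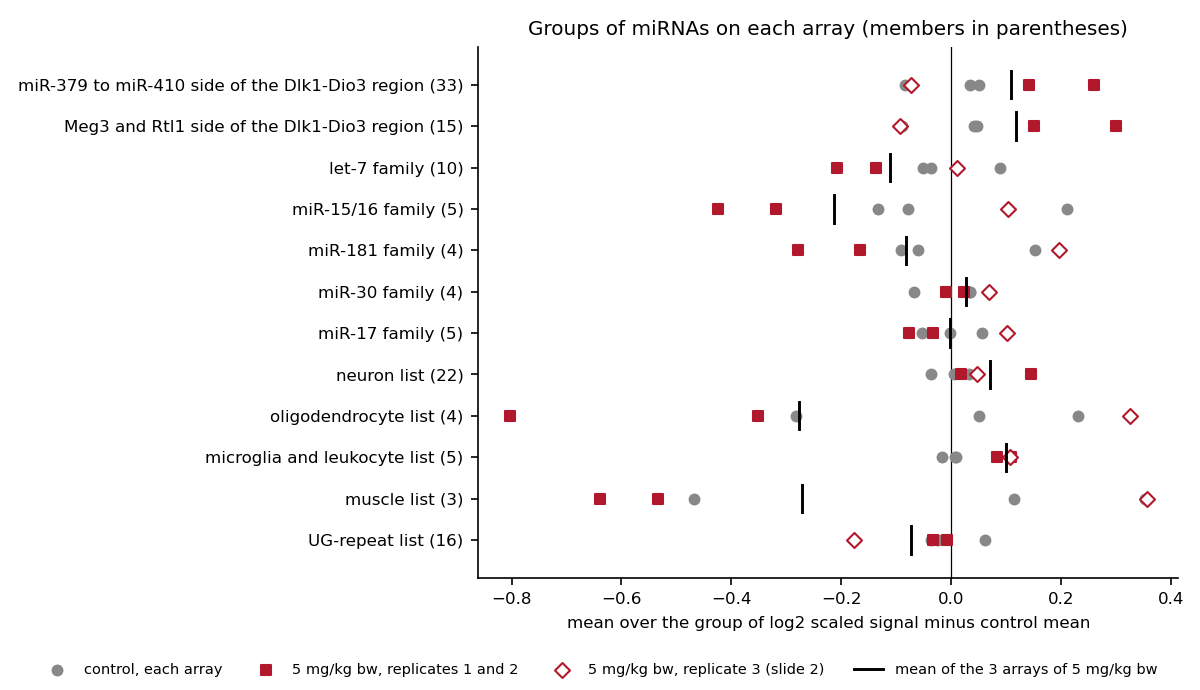
Mean over each group of miRNAs of the log2 scaled signal minus the control mean, for each array, with the number of members in parentheses. Grey points are control arrays, squares replicates 1 and 2 of 5 mg/kg bw, the open diamond replicate 3, and the bar the mean of the 3 exposed arrays. Replicate 3 lies beside control replicate 1 in both Dlk1-Dio3 groups and in the muscle list, and on the other side of the control mean from replicates 1 and 2 for the miR-15/16, miR-181 and oligodendrocyte groups.

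Members sharing a seed were few: 34 seeds were shared by at least 2 of the 341 members with a sequence, and 5 seeds had 4 members or more. In the let-7 family, which restrains growth and is abundant in neurons, 0 of 10 members passed the test, all 10 changes were below 0, and the median was -0.09 (range -0.25 to -0.02). let-7c-5p lay at 5.92, 5.68 and 5.65 in control and at 5.26, 5.55 and 5.84 at 5 mg/kg bw, with replicate 3 inside the control range. Its change was -0.20 (SE 0.15), and -0.35 without replicate 3. let-7b-5p changed most, by -0.25 (SE 0.17), and let-7f-5p least, by -0.02 (SE 0.07). Without replicate 3 the median was -0.15 and 2 members were lower (14.0% over all members), and replicate 3 alone had a median of 0.03 above the control mean. Without scaling the median was 0.02, against 0.11 for all members.

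In the miR-15/16 family, which acts on cell cycle and survival genes, 0 of 5 members passed, all 5 changes were below 0 and the median was -0.23. miR-195a-5p lay at 1.62, 0.91 and 1.08 in control and at 0.24, 0.61 and 1.44 at 5 mg/kg bw. The groups overlapped through replicate 3, and the change was -0.44 (SE 0.33). miR-15a-5p changed by -0.30 (SE 0.18), miR-15b-5p by -0.23 (SE 0.15) and miR-322-5p by -0.01 (SE 0.12). Without replicate 3, 3 of 5 were lower (14.0% over all members) and the median was -0.39, while replicate 3 lay at 0.11 above the control mean. The miR-181 family (4 members, median -0.09), the miR-17 family (5 members, median -0.03) and the miR-30 family (4 members, median -0.01) had 0 called members. Without replicate 3, 2 members of the miR-181 family were lower (14.0% over all members), miR-181c-5p by 0.28 among them. In the miR-30 family miR-384-5p was then higher by 0.41 (14.7% higher over all members) and miR-30a-5p lower by 0.27.

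By genomic cluster (genes on 1 strand with no gap over 10 kb), 10 clusters had 4 members or more. The largest, the miR-379 to miR-410 side of the Dlk1-Dio3 region (chr12:109709060-109747960, plus strand, 33 members), had 2 members higher (4.10% higher over all members) and 0 lower, and 29 of 33 changes were above 0, against 200 of 415 for all members. Its median change was 0.11. Without replicate 3, 16 of 33 were higher (14.7% over all members) and 0 lower with a median of 0.21, while replicate 3 had a median of -0.09 against the control mean. The mean over these members was -0.08, 0.05 and 0.03 on the control arrays and 0.26, 0.14 and -0.07 on the exposed arrays. Replicate 3 thus lay at the level of control replicate 1. The median was 0.04 with normexp and 0.03 with the row as a block. The lowest member was miR-494-3p, at -0.15 (SE 0.17).

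The other side of the same region, within Meg3 and Rtl1 (chr12:109563692-109595388, 15 members), had 3 higher (4.10% over all members) and 0 lower, with a median of 0.06. The median was -0.01 both with normexp and with the row block, and -0.10 on replicate 3. The 3 called members were miR-127-5p, miR-540-5p and miR-136-5p. miR-136-5p lay at 0.43, 0.47 and 0.62 in control and at 0.96, 0.76 and 0.56 at 5 mg/kg bw. Replicate 3 fell inside the control range, and the change was 0.26 (SE 0.11). miR-540-5p changed by 0.42 (SE 0.15) but by -0.04 with normexp, and miR-337-5p was the lowest, at -0.14 (SE 0.06). Without replicate 3, 6 members were higher (14.7% over all members) and 0 lower, with a median of 0.14. The lncRNA Meg3, Rtl1 and these miRNAs were placed by RefSeq spans without regard to strand, so a span does not name a host gene. Whether they share a transcript was not tested.

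Of the other clusters, let-7a-1, let-7f-1 and let-7d on chromosome 13 (5 members) had 0 higher and 2 lower, against 5.78% lower over all members. Those 2 were the 3p strands let-7a-1-3p and let-7d-3p, and the median of the cluster was -0.12. let-7a-1-3p lay at -4.08, -4.36 and -4.09 in control and at -4.66, -4.40 and -4.50 at 5 mg/kg bw, with no overlap and a change of -0.34 (SE 0.10). Its brightest probe, at 19.5 intensity units, changed by -0.15, and the others, at 1.37 to 3.77 units, by -1.11 to -0.70. let-7d-3p fell by 0.34 (SE 0.15), or by 0.29 without replicate 3, where it no longer passed. Its probes at 1.27 and 1.81 units changed by -1.68 and -1.10, and those at 6.32 and 13.4 units by -0.37 and -0.10. With normexp let-7a-1-3p changed by -0.11 and let-7d-3p by -0.10, and neither passed. The miR-17-92 cluster on chromosome 14 (6 members), a promoter of cell division, had 0 higher and 1 lower, miR-92a-3p at -0.31 (SE 0.13), and its highest was miR-17-5p at 0.21 (SE 0.15), a member only through the exposed group, since 1 control array missed it. The clusters of let-7c-1 and miR-99a (median -0.15), of miR-29a and miR-29b-1 (-0.08), of miR-188 to miR-532 on the X chromosome (-0.06), of miR-23a, miR-27a and miR-24-2 (-0.05), of let-7e and miR-125a (-0.04) and of miR-30c-1 and miR-30e (0.02) had 0 called members. In the miR-23a cluster the median was -0.18 without replicate 3, which itself lay at 0.22.

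Arm use was compared for 66 hairpins with both strands among the members, as the difference of log2 levels, 5p minus 3p. At an unadjusted p under 0.05, 10 hairpins differed (15.2%), 9 with a higher and 1 with a lower ratio, and the lowest adjusted p from limma was 0.165. The split of higher and lower ratios was 4 to 2 with normexp, 3 to 3 from the deposited table, 6 to 4 from the total signal and 3 to 2 with the row block. Without replicate 3 there were 15 (22.7%), 13 higher and 2 lower, of which 9 were shared, with a lowest adjusted p of 0.0745. Both strands moved in the same direction in 46 of the 66 hairpins. Signals of different probes are not comparable as amounts of RNA, so only the change of a ratio is read. In miR-127 the difference was -6.88 in control and -6.51 at 5 mg/kg bw, a change of 0.38 (SE 0.11) that came from the 5p strand (0.44) and not the 3p strand (0.06). With normexp the change was -0.09. In miR-376a the ratio fell, by 0.26 (SE 0.08), since the 3p strand rose by 0.44 and the 5p strand changed by 0.18, and it fell by 0.43 with normexp. miR-505 (0.29), miR-153 (0.23) and miR-582 (0.25) were the other hairpins of lowest p, and the sign in miR-153 reversed with normexp (-0.10). Because of its offset, normexp pulls the change of the dimmer strand toward a common value. These normexp ratios therefore cannot show how that strand changed.

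**Figure D4:**
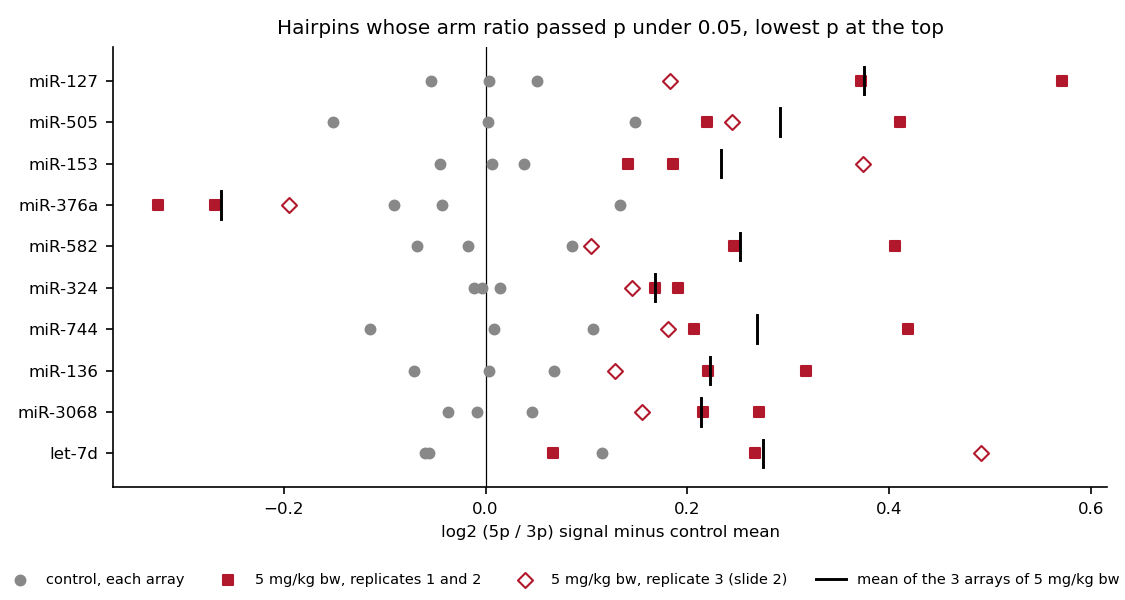
The 10 hairpins whose ratio of 5p to 3p signal passed an unadjusted p under 0.05, lowest p at the top. Each point is an array, placed by its log2 ratio minus the control mean, with controls in grey, replicates 1 and 2 of 5 mg/kg bw as squares, replicate 3 as an open diamond and the mean of the exposed arrays as a bar. The bar is to the right of zero in 9 hairpins and to the left in miR-376a.

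Oligodendrocyte and muscle miRNAs set replicate 3 apart from the other exposed arrays. The 4 oligodendrocyte members, miR-219 and miR-338 strands known from myelin-forming cells, had 0 called, a median of -0.28, and a mean of 0.23, -0.28 and 0.05 on the control arrays and -0.80, -0.35 and 0.33 on the exposed arrays. Without replicate 3, 3 of 4 were lower (14.0% over all members) with a median of -0.63, miR-219-5p at -0.74 among them. The muscle miRNAs miR-1a, miR-133a and miR-133b, which are rare in hippocampus, had a mean of 0.35, -0.47 and 0.11 on the control arrays and -0.53, -0.64 and 0.36 on the exposed arrays. In both lists the controls alone spread over 0.5 or more. The 22 neuron members had 1 higher (miR-153-5p, against 4.10% over all members) and 0 lower, with a median of 0.07, or 0.00 with normexp. The 3 choroid plexus members had a median of -0.06, and their medians on the exposed arrays were -0.12, 0.21 and -0.48 against the control mean. The 2 ependymal members had a median of -0.07, with -0.34, 0.58 and -0.45 on these arrays, so that replicate 2 was the high array. Replicate 3 shares row 1 with the controls, and column 1 of that row with control replicate 1, while replicates 1 and 2 lie in row 2. Whether tissue composition, slide, row or position set replicate 3 apart from replicates 1 and 2 was not tested.

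The largest falls by size were in members that did not pass the test. They were chosen after their values were seen. miR-200b-3p and miR-429-3p, which share a seed, and miR-200a-3p, all known from epithelial cells, changed by -0.89 (SE 0.76), -0.84 (SE 0.70) and -0.81 (SE 0.68). miR-200b-3p lay at -3.24, -4.10 and -4.00 in control and at -6.27, -4.61 and -3.12 at 5 mg/kg bw. Replicate 1 was not detected and is given at the floor of its array, which also holds for miR-200a-3p, so these changes rest on a value that is only a bound. Replicate 2 lay below and replicate 3 above every control. The miR-429-3p signal of replicate 1 was not detected either. miR-34a-5p, a p53 target, lay at 2.00, 0.61 and 1.48 in control and at 0.08, 0.07 and 1.94 at 5 mg/kg bw, a change of -0.66 (SE 0.54), with replicates 1 and 2 below all controls and replicate 3 near the highest. Of 14 members listed for synaptic and cognitive impairment, 0 passed (median 0.00), and of 15 listed as targeting BACE1, 0 passed (median -0.02, range -0.13 to 0.14).

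Members called only without replicate 3 included miR-137-3p, a regulator of neuronal maturation, at 2.39, 2.94 and 2.75 in control and 3.31, 3.27 and 2.46 at 5 mg/kg bw. Replicates 1 and 2 exceeded all controls and replicate 3 did not, so the change was 0.32 (SE 0.24) with it and 0.59 without it. miR-770-3p, within Meg3, changed by 0.36 and 0.56, miR-376a-5p by 0.18 and 0.29, and miR-374c-5p, within Ftx, by 0.31 and 0.45, with and without that array. Lower only without it were miR-6351 at -0.29, miR-19a-3p at -0.27, miR-15a-5p at -0.50, miR-219-5p at -0.74 and miR-15b-5p at -0.39. For these 5 the values with all arrays were -0.20, -0.18, -0.30, -0.39 and -0.23.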

How the data were processed

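Total RNA of the hippocampus was labelled with Cy3 and hybridised to Agilent mouse miRNA arrays (version 19.0). The authors extracted the scans with Agilent Feature Extraction 10.7, and the deposited files hold unnormalized intensity per spot, already background-subtracted as the processed signal, with detection calls per miRNA. The deposited series table holds log2 values, whose scale and normalization are not given in the sources used here (the methods name GeneSpring 11.0). It was used as an alternative.

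From the processed signals, outlier spots were dropped, spots averaged per probe, probes summed per miRNA, arrays divided by the 75th percentile of the miRNAs detected on all 9 arrays, values floored at the lowest detected signal and log2 taken. The number of arrays limits the precision. limma 3.58.1 (R 4.3.3) fitted 3 groups over 9 arrays, with Benjamini-Hochberg adjustment over the 415 members or the 66 hairpins. No exact test of 3 against 3 arrays can go below p = 0.1, so none is given for single miRNAs. The limma fit was checked on simulated, independent log2 values with no row or slide effect, and the other steps were not simulated.

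The members and lists were chosen with earlier results of these data known. Named miRNAs were miR-574-5p, the 12 largest rises and falls among members called without overlap, the 5 of lowest p, the 5 in each direction of lowest p called only without replicate 3, the 6 of highest signal, the 5 hairpins of lowest p, and, in described families and clusters, called members and those with the highest and lowest change. Lists are described by counts and medians, with no test. No 2 arrays were copies. The study names 3 individual mice a group, so p-values measure the spread between these mice and their arrays together. Replicate numbers did not pair arrays, with correlations of -0.65, 0.69 and -0.32 between same-numbered deviations. Alternatives were other signals, background, scaling, filters, tests, blocks and left-out arrays. The normexp alternative added an offset of 50 intensity units to each spot, while mean signals in the dimmest abundance class reached 41.6. Such an offset pulls changes of dim miRNAs toward a common value. Sequences and positions are RefSeq's (GRCm38.p6). A miRNA was placed within a gene by position alone, whatever the strand.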

Additional observations from a re-analysis of the deposited data

Results flagged for a closer look

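Outside the compared members, a search took only miRNAs detected on no control array and on 2 arrays of 5 mg/kg bw, with scaled signals there above every control. The opposite direction was not searched. Of the miRNAs outside, 4 met this rule, each detected on replicates 1 and 2. They were miR-764-3p, with a highest signal of 18.3 intensity units on those arrays, miR-344c-3p (14.6), miR-503-5p (11.1) and miR-708-3p (9.37). Their highest control signals, called not detected, were 8.03, 10.5, 9.43 and 7.59 in the same order. Before scaling, miR-344c-3p had 10.5 units on replicate 2 of both groups. The lowest detected signals of the arrays were between 6.98 and 8.10, and these miRNAs were detected on 2 exposed arrays each, so they did not enter the comparison. No cause was tested.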

How the results depend on the processing

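The count of 41 members at an unadjusted p under 0.05 stayed within 1.5 times under 15 of 25 alternatives. It was 102 from the total signal of the software, 17 with normexp, 14 with the row block, 70 when arrays were weighted by quality and, in alternatives chosen after seeing the data, 79 without scaling or replicate 3 and 12 for replicate 3 alone against the controls, both in row 1. Leaving out 1 array gave 20 to 119: 20 without control replicate 1, 22 without 5 mg/kg bw replicate 1, 21 without its replicate 2 and 119 without its replicate 3. With the replicate number as a block there were 36, and 9 hairpins. After adjustment 0 passed in all alternatives but the total signal, where 2 did, miR-381-3p and miR-7b-3p (leaving out 1 array: 0 to 0). Members without overlap numbered 68, and 126 from the total signal, 826 with no filter (where undetected miRNAs sit at each array's floor), and, chosen after seeing the data, 170 with normexp and 188 without scaling, both without replicate 3, and 212 for replicate 3 alone, a count of 1 array against 3 that is not comparable with the others. Leaving out 1 array gave 80 to 212, with 104 without control replicate 2, 118 without control replicate 3 and 212 without 5 mg/kg bw replicate 3. Hairpins numbered 10, and 6 with normexp, 6 from the deposited table, 5 with the row block and 7 to 15 with 1 array left out (15 without 5 mg/kg bw replicate 3).

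Of 28 named members called, 19 kept their sign under every alternative. Signs reversed with normexp for miR-127-5p (-0.0124), miR-708-5p (-0.0425), miR-325-3p (-0.0276), miR-153-5p (-0.0414), miR-872-3p (-0.0450) and miR-540-5p (-0.0446), with normexp and no replicate 3 for miR-153-5p (-0.0141), miR-872-3p (-0.0117) and miR-540-5p (-0.00139), and from the total signal for miR-669c-3p (0.188), miR-1983 (0.0434), miR-706 (0.165), miR-770-3p (-0.194) and miR-540-5p (-0.317). The cause was not tested. No scaling raised the median change of all members to 0.11 and the total signal to 0.14. Normexp moved it to -0.046, below which none of the reversed values listed here with normexp and all arrays lay. With its offset of 50 units per spot, normexp cannot decide the signs of such dim members. Of 936 group medians, 758 moved by less than the spread of the exposed arrays.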
